A study of Mus musculus with 15 samples.

Results

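The late phase after proton irradiation was compared with the early phase: the 4 arrays of days 12 and 26 (late) against the 5 arrays of days 1 and 3 (early), 9 of the 15 arrays of the series. All 9 carried RNA of left ventricular cardiomyocytes from male C57Bl/6NT mice (Taconic), an inbred laboratory strain, which were adult at 8 to 9 months and whose whole body had been exposed to 1 GeV protons at a dose of 90 cGy at the NASA Space Radiation Laboratory. The late group held 2 arrays of day 12 and 2 of day 26, and the early group 2 arrays of day 1 and 3 of day 3. The remaining arrays, 3 of proton day 5 and 3 of sham mice (2 of day 1 and 1 of day 3), took no part in the test and are quoted as side values. The days are those of the sample titles, whereas days 1, 3, 7, 14 and 28 stand in the design text. There was no sham array of a late day, so a late minus early difference cannot be told apart from differences of age, handling or day of isolation. The labels do not say whether arrays of a day came from different mice, and the p-values measure only the spread between these samples.

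Protons of this energy leave sparse ionisation tracks, and a whole-body exposure reaches the heart together with bone marrow and blood vessels. Adult cardiomyocytes hardly divide, live almost wholly on mitochondrial oxidation, and fold membrane and secreted proteins in an endoplasmic reticulum (ER) whose chaperone genes are raised by the unfolded protein response. Early days after irradiation are the time of acute phase and damage signals in many tissues, and the weeks that follow are the time in which immune cells, vessels and matrix have been described to change. The comparison asks which transcripts stood at another level in the weeks than in the first days.

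The cells kept the profile of cardiomyocytes in both phases. Of the 17 cardiomyocyte markers tested, 8 were higher and 9 lower in the late arrays, with a median log2 difference of -0.0088, against a median of 0.025 over all genes. This split depended on the scaling. With the arrays set to equal medians, 0 of the 17 were higher, and the median was -0.095, against -0.061 over all genes. Myh6, the main adult myosin heavy chain of the mouse ventricle, read 11.84, 12.03, 11.92 and 11.83 in the late arrays, against 11.90, 12.02, 11.99, 11.90 and 11.94 in the early arrays. Tnnt2, cardiac troponin T, differed by 0.0022 ± 0.033, and Atp2a2, the calcium pump of the sarcoplasmic reticulum, by -0.0075 ± 0.028. The protocol states that more than 90% of the cells were calcium-tolerant cardiomyocytes and that some inflammatory or endothelial cells could remain. A score of such cells, the mean deviation of endothelial, fibroblast and macrophage markers, stood at -0.25, 0.72, 0.47 and 0.10 in the late arrays, against 0.10, 0.47, -0.63, -0.72 and 0.45 in the early arrays, so that replicates 1 and 2 of day 3 lay lowest.

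Values are log2 signals, and a difference is the late mean minus the early mean, with the standard error of the limma fit. Arrays are given in the order day 12 replicates 1 and 2 and day 26 replicates 1 and 2 for the late group, then day 1 replicates 1 and 2 and day 3 replicates 1 to 3 for the early group. Among 12102 genes, limma called 0 (0%) at a Benjamini-Hochberg adjusted p under 0.05, the smallest adjusted p being 0.133. At an unadjusted p under 0.05 there were 1380 genes (11.4%), of which 685 (5.66%) were higher and 695 (5.74%) lower in the late arrays. Under equal array medians that split became 273 higher and 1290 lower, and under quantile normalization 517 and 826. The late and early arrays did not overlap for 493 genes (4.07%), with all late arrays higher for 179 (1.48%) and lower for 314 (2.59%). The mean was higher in the late arrays for 6791 genes (56.1%), but for 36.4% under equal array medians. In a fit of 14 samples, including sham and day 5, each day was its own group, and late and early were means of their day means. The spread between the days of a phase then left the error, and the differences shifted slightly. There, 6 genes passed (0.0496%): Ctnnal1, Lcn2 and Phka1 lower, and Aplnr, Zfp36l1 and Sdf2l1 higher. Without replicate 1 of day 1, Aplnr and Phka1 passed, and without day 12, 8 genes did. The means differed by more than 1 log2 unit for 16 genes, 12 higher and 4 lower. None of the genes named below passed in the 9 arrays, and each is given by its values.

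Lcn2, on chr2:32384637-32387739 (GRCm38.p6), had the smallest p of all genes. It encodes lipocalin 2, an iron-siderophore binding protein of neutrophils and of the acute phase response. Its signal was 7.08, 7.97, 7.44 and 7.86 in the late arrays, against 9.39, 9.63, 8.70, 8.90 and 9.35 in the early arrays. No late array reached the lowest early array. The difference was -1.61 ± 0.22 (limma adjusted p = 0.133), a level in the late arrays 0.328 times that in the early ones. The sham arrays read 8.46, 8.96 and 8.54, all above the late group and 1 of them within the early range, and the day 5 samples 7.99 and 8.21, the first being the mean of 2 nearly identical arrays. Phka1, on chrX:102513975-102644301, encodes the muscle alpha subunit of phosphorylase kinase, the enzyme that switches on glycogen breakdown. It read 8.11, 8.17, 8.00 and 8.11 in the late arrays, against 8.53, 8.92, 9.19, 8.89 and 9.00 in the early arrays. The late arrays lay within a narrow band below all early ones, with a difference of -0.81 ± 0.11 (limma adjusted p = 0.133). Sham arrays read 8.48, 8.63 and 8.13, 1 of them as low as the late group, and day 5 samples 8.23 and 8.51.

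The other leading genes with lower late signals had smaller differences, and in none of them did the groups overlap. Ctnnal1, alpha-catulin, a relative of alpha-catenin, read 7.76, 7.58, 7.39 and 7.38 in the late arrays, against 7.97, 8.07, 8.39, 8.49 and 8.61 in the early arrays. Day 3 stood highest and day 26 lowest, and the difference was -0.78 ± 0.14. Acad11, an acyl-CoA dehydrogenase, read 9.01, 8.91, 8.96 and 8.93 in the late arrays, against 9.31, 9.33, 9.27, 9.27 and 9.41 in the early arrays. Its groups were each tight and far from overlap, at -0.37 ± 0.054 (limma adjusted p = 0.133). H1f2, a linker histone, read 9.14, 9.01, 9.16 and 8.92 in the late arrays, against 9.53, 9.45, 9.52, 9.53 and 9.80 in the early arrays, a difference of -0.51 ± 0.081. Car14, a membrane-bound carbonic anhydrase, read 9.49, 9.40, 9.38 and 9.38 in the late arrays, against 9.72, 9.70, 9.81, 9.65 and 9.79 in the early arrays, a difference of -0.32 ± 0.053. Its sham arrays read 9.90, 9.89 and 10.03, above all 9 proton arrays.

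Sdf2l1, on chr16:17130138-17132383, led the genes with higher late signals. It encodes a cofactor of the Hspa5 chaperone system in the ER. It read 7.14, 7.50, 7.80 and 7.60 in the late arrays, against 6.73, 6.51, 6.36, 6.65 and 6.85 in the early arrays. All late arrays lay above all early ones, both arrays of day 26 above both of day 12, and the difference was 0.89 ± 0.14 (limma adjusted p = 0.154). The sham arrays read 6.58, 6.45 and 6.24 and the day 5 samples 6.95 and 6.89, the day 5 values thus lying between the late and the early group. Aplnr, the apelin receptor of endothelial cells, read 6.71, 6.48, 6.60 and 6.39 in the late arrays, against 6.11, 5.65, 5.08, 5.18 and 5.35 in the early arrays. The gap between groups was wide against day 3 and narrower against day 1, at 1.07 ± 0.19 overall. The sham values were 5.69, 5.87 and 6.92, and the last of them exceeded the late group.

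Fxyd2, the gamma subunit of the sodium pump, read 5.88, 5.88, 5.98 and 6.13 in the late arrays, against 5.30, 5.43, 5.36, 5.20 and 5.46 in the early arrays, a difference of 0.62 ± 0.10. Ces1d, a carboxylesterase that acts on lipids, read 9.41, 9.55, 9.52 and 9.53 in the late arrays, against 9.23, 9.14, 8.94, 9.15 and 8.93 in the early arrays, a difference of 0.42 ± 0.075. Nfix, a transcription factor of the nuclear factor I family, read 9.55, 9.56, 9.76 and 9.71 in the late arrays, against 9.25, 9.38, 9.18, 9.33 and 9.12 in the early arrays, a difference of 0.39 ± 0.071. None of these 3 genes showed an overlap of the groups. For Nfix the sham arrays read 9.39, 9.61 and 9.23, the second of them above both day 12 arrays. Snord73b, a C/D box small nucleolar RNA that guides methylation of ribosomal RNA, read 7.84, 7.78, 7.61 and 7.95 in the late arrays, against 7.32, 7.17, 7.24, 6.93 and 6.70 in the early arrays, a difference of 0.72 ± 0.13. For Snord73b the day 5 samples disagreed, at 8.20 and 7.24. Zfp36l1, which binds AU-rich elements and speeds the decay of mRNAs, read 8.01, 8.19, 8.83 and 8.54 in the late arrays, against 7.70, 7.81, 7.67, 7.64 and 7.84 in the early arrays. It was chosen after its values were seen, as 1 of the genes that passed over all 14 samples, and differed by 0.66 ± 0.15 in the 9 arrays. The sham arrays of Zfp36l1 read 7.66, 7.52 and 8.39, the last of them above both day 12 arrays.

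**Figure D1:**
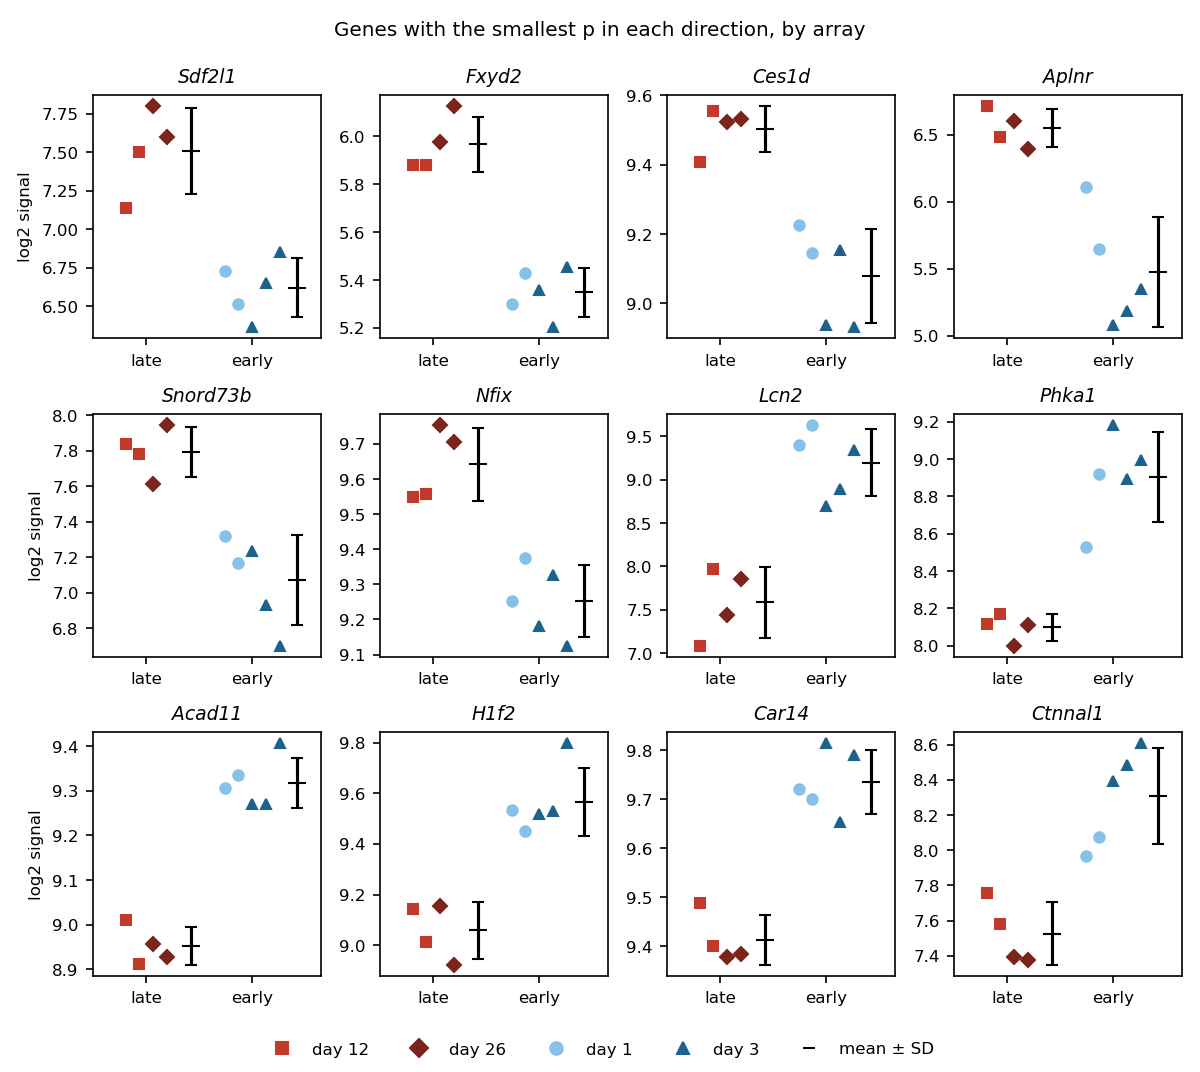
Log2 signal of the 12 genes with the smallest p, 6 higher and 6 lower, in each late array (left) and early array (right). Symbols mark the day and black bars the mean ± SD; the groups do not overlap in any of the 12 panels, for example Lcn2 at 7.08 to 7.97 late against 8.70 to 9.63 early.

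Gene lists of pathways and cell types, 42 in all, were described by their counts and median. No member of any list passed the adjusted threshold. The medians were furthest above that of all genes for lymphocyte markers (0.67), MHC genes (0.62) and complement (0.44), and furthest below for markers of neutrophils (-0.46) and of erythroid cells and platelets (-0.45). In RNA of whole preparations, fewer cells of a type and less RNA per cell cannot be told apart.

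**Figure D2:**
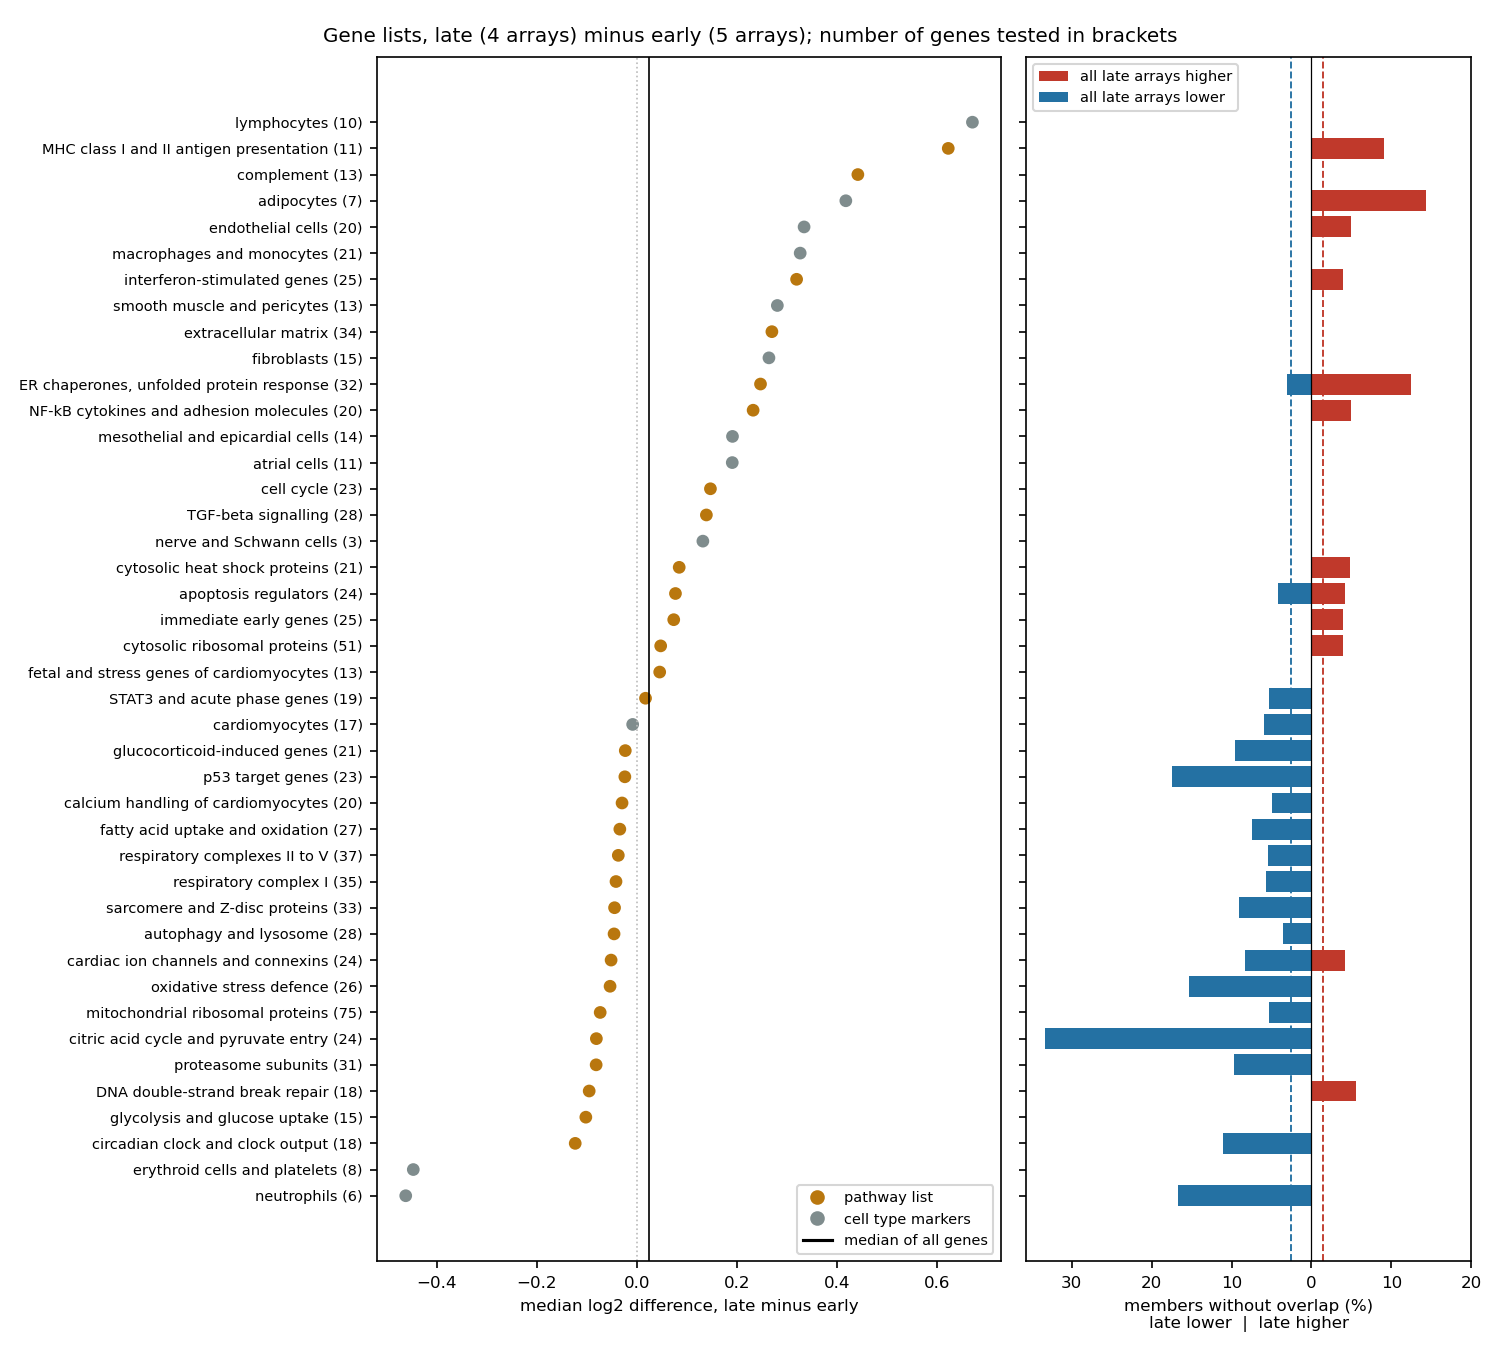
Median log2 difference, late minus early, of each list (left panel, black line at the median of all genes, 0.025) and the percentage of its genes whose late and early arrays do not overlap (right panel, dashed lines at 1.48% for higher and 2.59% for lower over all genes). On the higher side ER chaperones hold 4 of 32 such genes, and on the lower side the citric acid cycle holds 8 of 24, the most of the 42 lists by count in each direction. By percentage, adipocyte markers (1 of 7) stand above ER chaperones on the higher side.

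The ER chaperone and unfolded protein response list held 32 tested genes, of which 29 had a higher mean in the late arrays, with a median difference of 0.25. At an unadjusted p under 0.05, 16 members were higher and 1 lower, against 5.66% and 5.74% of all genes, and 0 passed the adjusted threshold. Under equal array medians 8 were higher and 2 lower at that p, with a median of 0.16. Members higher without overlap numbered 4 as deposited, 6 under quantile normalization and 1 under equal array medians. Ero1b, counted among the 16, passed the signal filter only through its late and day 5 values. Per array, the list mean (deviation from each gene's mean over the 15 arrays) was -0.041, 0.24, 0.36 and 0.21 in the late arrays, against -0.062, -0.10, -0.11, -0.071 and 0.10 in the early arrays. Replicate 1 of day 12 and replicate 3 of day 3 overlapped the other group, and both arrays of day 26 and replicate 2 of day 12 lay above all early arrays. The sham arrays had list means of -0.22, -0.19 and -0.27, below every proton array, and those of day 5 lay at 0.027, 0.032 and 0.090. With the other-cell marker score as a covariate the list median was 0.20.

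Among the chaperones of the ER lumen, Hspa5 (BiP), the central HSP70 and sensor partner of the response, read 10.42, 10.65, 10.83 and 10.69 in the late arrays, against 10.32, 10.52, 10.38, 10.41 and 10.52 in the early arrays. The groups overlapped through replicate 1 of day 12, and the difference was 0.22 ± 0.078 (limma adjusted p = 0.358). Hsp90b1 (GRP94) differed by 0.27 ± 0.076 and the lectin chaperone Calr by 0.29 ± 0.088. Hyou1, the nucleotide exchange factor of Hspa5, read 7.41, 7.84, 8.06 and 7.61 in the late arrays, against 7.29, 7.28, 7.12, 7.07 and 7.35 in the early arrays. Manf, a secreted ER stress protein, read 7.69, 7.85, 8.44 and 8.16 in the late arrays, against 7.63, 7.62, 7.26, 7.55 and 7.59 in the early arrays. Both were without overlap, at 0.51 ± 0.13 and 0.50 ± 0.15. Creld2, another secreted stress protein, read 7.63, 7.86, 8.36 and 7.79 in the late arrays, against 7.46, 7.26, 7.02, 7.32 and 7.65 in the early arrays and overlapped by 1 array on each side, at 0.57 ± 0.16.

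The oxidative folding enzymes did not move as 1 block. Pdia4, a protein disulfide isomerase, read 7.95, 8.63, 8.69 and 8.57 in the late arrays, against 7.68, 7.80, 7.40, 7.59 and 8.26 in the early arrays, a difference of 0.71 ± 0.19, and Pdia6 differed by 0.35 ± 0.15. Of the oxidases that recharge them, Ero1b differed by 0.31 ± 0.12 whereas Ero1a read 7.08, 7.21, 7.15 and 7.12 in the late arrays, against 7.24, 7.29, 7.39, 7.43 and 7.54 in the early arrays. Ero1a was thus lower in all late arrays, at -0.24 ± 0.081. In the degradation branch, the ubiquitin ligase Syvn1 differed by 0.35 ± 0.11 and Derl3, which passes misfolded proteins to the cytosol, by 0.54 ± 0.20. Derl3 read 7.33, 7.45, 7.51 and 7.50 in the late arrays, against 7.15, 6.86, 7.47, 6.78 and 6.25 in the early arrays. Its sham arrays read 7.29, 7.29 and 7.31, close to the late group and above all early arrays except replicate 1 of day 3. Among the signalling proteins, Xbp1, the transcription factor activated by Ern1 splicing, read 8.95, 9.04, 9.10 and 9.09 in the late arrays, against 8.58, 8.73, 8.63, 8.74 and 8.86 in the early arrays. Its groups did not overlap, at 0.34 ± 0.071 (limma adjusted p = 0.199). The sensor Atf6 differed by -0.12 ± 0.074 and Ddit3 (CHOP), the death-linked target of the PERK branch, by 0.017 ± 0.26, with early values as far apart as 5.93 and 7.32. The sign of the Ddit3 difference turned under quantile normalization (-0.014) and equal array medians (-0.069). Of the members described, Pdia4, Sdf2l1, Hspa5, Hsp90b1, Xbp1 and Ddit3 follow the rule for names, and the others were chosen after their values were seen.

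The ER stress response element (ERSE), CCAAT and CCACG with 9 bases of any kind between them, is the site at which NF-Y and cleaved ATF6 bind promoters of chaperone genes. It was searched on both strands of the RefSeq promoters of GRCm38.p6, from 250 bases before to 50 after each start site. The element was found in 39 of 32851 promoters (0.119%) and in promoters of 10 of the 29 list genes with an entry (34.5%). The members with it had a median difference of 0.30 and those without it one of 0.12. At an unadjusted p under 0.05, 8 of the 10 were higher, against 16 of the whole list of 32 and 5.66% of all genes. Ero1b, 1 of these 8, passed the signal filter only through its late and day 5 values. Sdf2l1 (0.89) and Pdia4 (0.71), the largest differences of the list, were not among the 10. A link between the element and the late values was not tested. The sites are shown because they are what these members share in sequence; capitals mark the fixed letters of the element, and each is written 5′ to 3′ in the orientation of the motif.
Hspa5: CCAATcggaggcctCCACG
Hsp90b1 (first site): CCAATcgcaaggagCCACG
Hsp90b1 (second site): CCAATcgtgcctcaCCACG
Dnajc3: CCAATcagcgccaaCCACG
Pdia6: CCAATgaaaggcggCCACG
Calr: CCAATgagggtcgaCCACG
Canx: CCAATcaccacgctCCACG
Creld2: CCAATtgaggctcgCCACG
Syvn1: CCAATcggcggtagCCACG
Derl3: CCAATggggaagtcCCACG
Ero1b: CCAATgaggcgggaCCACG
Those of Calr, Creld2, Derl3 and Ero1b and the second of Hsp90b1 lay on the strand opposite to the gene. The Hspa5 site lay at chr2:34772025-34772043, its first base at -65 from the start site, and the Syvn1 site at chr19:6046532-6046550, its first base at -44. The unfolded protein response element TGACGTGG was in 222 promoters (0.676%) and in none of the 29, which says only that these letters were not in these windows.

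The promoters of Creld2 (chr15:88819396-88819695, plus strand) and Derl3 (chr10:75893148-75893447, plus strand) are given whole, since these genes had the largest differences among the 10. Capitals mark the element, read here on the strand of the gene as its reverse complement.
Creld2: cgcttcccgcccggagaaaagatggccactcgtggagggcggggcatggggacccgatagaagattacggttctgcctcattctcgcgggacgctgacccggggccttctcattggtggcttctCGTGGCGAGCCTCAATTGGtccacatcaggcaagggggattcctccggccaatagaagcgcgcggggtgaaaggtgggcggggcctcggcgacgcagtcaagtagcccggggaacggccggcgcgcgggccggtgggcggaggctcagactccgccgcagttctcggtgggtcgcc
Derl3: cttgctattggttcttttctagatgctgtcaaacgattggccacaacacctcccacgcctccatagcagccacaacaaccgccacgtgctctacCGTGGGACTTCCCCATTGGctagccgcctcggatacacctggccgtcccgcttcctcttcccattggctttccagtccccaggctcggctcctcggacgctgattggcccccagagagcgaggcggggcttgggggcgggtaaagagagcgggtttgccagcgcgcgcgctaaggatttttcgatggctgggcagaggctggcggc
A match in a promoter describes the sequence and was not tested as a binding site.

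The citric acid cycle oxidises acetyl groups in the mitochondrial matrix, and the pyruvate dehydrogenase complex feeds it from glucose. Of 24 genes tested, 21 were lower in the late arrays and 3 higher, with a median of -0.081. At an unadjusted p under 0.05, 11 were lower and 0 higher, against 5.74% and 5.66% of all genes, and for 8 of the 24 all late arrays were lower, against 2.59% of all genes. Under quantile normalization 5 of the 24 were without overlap and under equal array medians 2. The list mean was -0.020, -0.094, -0.015 and -0.071 in the late arrays, against 0.028, 0.040, 0.030, 0.097 and 0.056 in the early arrays. The groups did not overlap, at small deviations on both sides. Day 5 arrays lay within the late range, at -0.064, -0.069 and -0.038, and the sham arrays stood above 0, at 0.025, 0.012 and 0.085. With the other-cell marker score as a covariate the list median was -0.084.

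Several subunits of the pyruvate dehydrogenase complex were among them. Pdha1, the alpha subunit of its E1 component, read 10.68, 10.63, 10.70 and 10.56 in the late arrays, against 10.76, 10.81, 10.72, 10.79 and 10.83 in the early arrays, a difference of -0.14 ± 0.045. Dlat, the E2 component, read 9.74, 9.64, 9.65 and 9.58 in the late arrays, against 9.81, 9.94, 9.90, 9.87 and 9.89 in the early arrays, a difference of -0.23 ± 0.051 (limma adjusted p = 0.204). Pdhx, which anchors E3 to the core, differed by -0.27 ± 0.074, and Dld, the E3 component shared with the oxoglutarate complex, by -0.26 ± 0.073. Pdk1, a kinase that inhibits the complex, was also lower, at -0.21 ± 0.069. All but Dld were without overlap.

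Among the enzymes of the cycle, the lower members without overlap were Suclg1, Dlst and Fh1, and the cytosolic Mdh1 of the same list joined them. Suclg1, the alpha subunit of succinate-CoA ligase, read 9.37, 9.33, 9.45 and 9.35 in the late arrays, against 9.58, 9.60, 9.54, 9.62 and 9.67 in the early arrays. Its groups lay close together without overlap, at -0.23 ± 0.051 (limma adjusted p = 0.204). Dlst, the E2 component of oxoglutarate dehydrogenase, differed by -0.15 ± 0.040, Fh1, fumarase, by -0.17 ± 0.052, and Mdh1, the cytosolic malate dehydrogenase, by -0.12 ± 0.037. Idh3a, of the NAD-linked isocitrate dehydrogenase, differed by -0.20 ± 0.060 with overlap. Of these members, Pdhx and Dld were named by rule and the others after their values were seen.

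**Figure D3:**
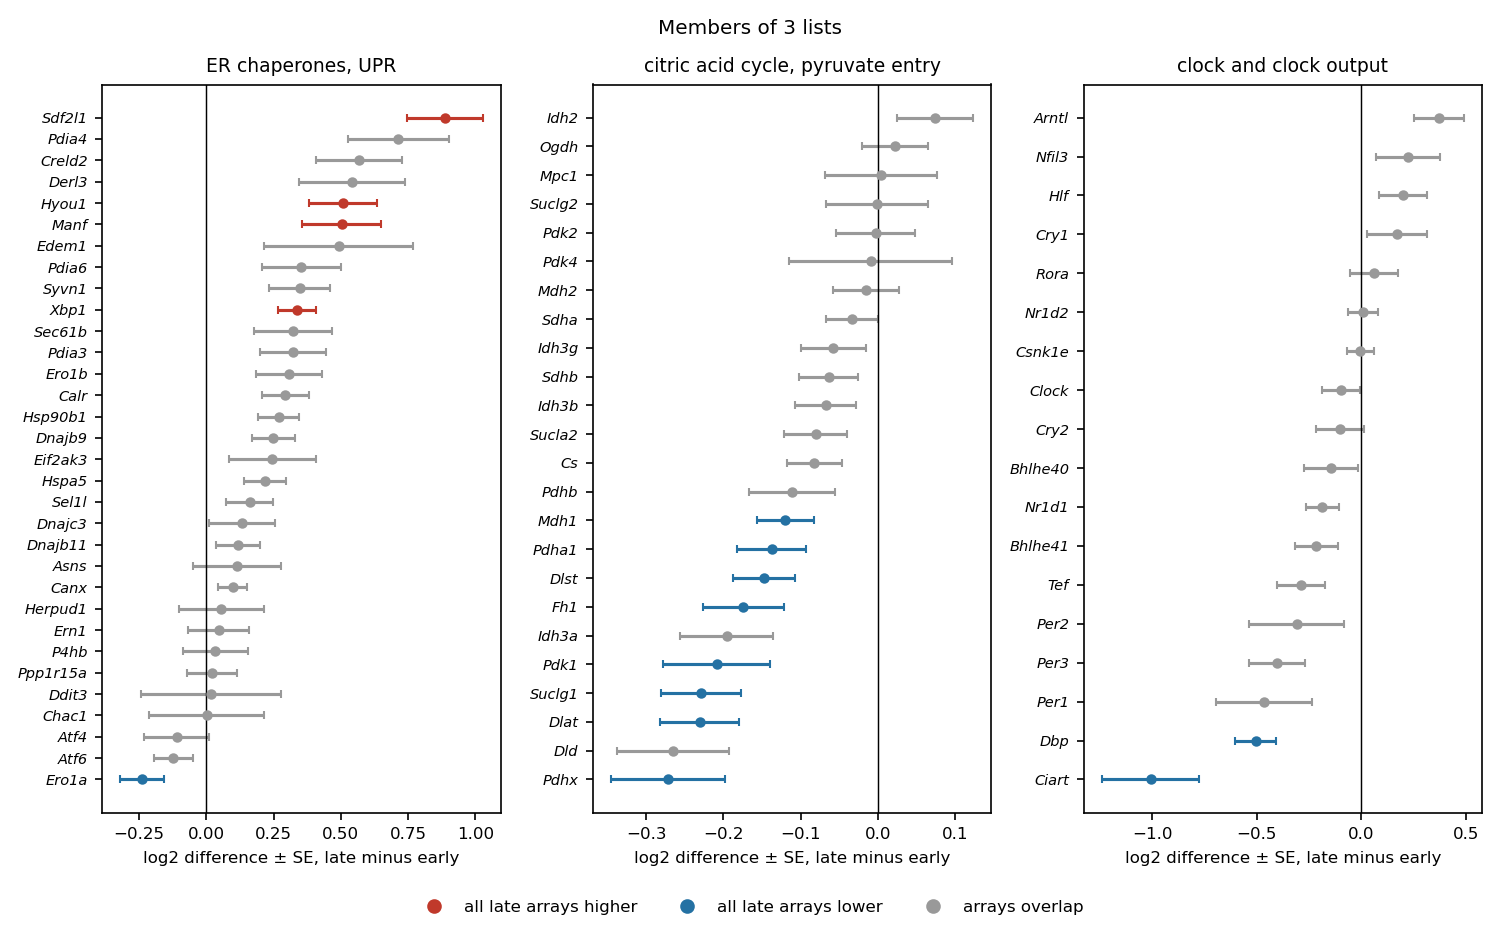
Late minus early log2 difference (points) with its SE (bars) for every tested gene of the ER, citric acid cycle and clock lists. Red and blue points are genes whose late arrays are all higher or all lower than the early ones: 4 and 1 of 32 ER genes, 0 and 8 of 24 citric acid cycle genes, and 0 and 2 of 18 clock genes.

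Glycogen metabolism was examined after the value of Phka1 had been seen, over 20 tested genes of synthesis and breakdown. Of these, 14 were lower and 6 higher in the late arrays, with a median of -0.086, and 4 had all late arrays lower, against 2.59% of all genes. They were Phka1, Ugp2, which makes UDP-glucose, at -0.41 ± 0.079, Gys1, the muscle glycogen synthase, at -0.28 ± 0.064, and the branching enzyme Gbe1, at -0.27 ± 0.079. Phka1 led to the choice of the group, so its own place among the 4 was fixed beforehand. Ugp2 read 9.32, 9.39, 9.07 and 9.23 in the late arrays, against 9.56, 9.58, 9.83, 9.64 and 9.70 in the early arrays. Gys1 read 9.24, 9.17, 9.28 and 9.28 in the late arrays, against 9.35, 9.58, 9.50, 9.60 and 9.59 in the early arrays. These enzymes build glycogen, whereas Pygm, the muscle glycogen phosphorylase, differed by -0.037 ± 0.039. Of the other subunits of phosphorylase kinase, Phkg1, the catalytic subunit of muscle, differed by -0.47 ± 0.12 and Phkb by -0.13 ± 0.073.

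Other routes of energy metabolism had medians between -0.10 and -0.034. The glycolysis list had 15 genes tested, 2 higher and 13 lower, median -0.10, with 3 lower at an unadjusted p under 0.05, against 5.74% of all genes, and none without overlap. Its largest differences were Pfkfb2 -0.35 ± 0.14 and Ldha -0.14 ± 0.061, for a regulator of phosphofructokinase and lactate dehydrogenase A. Fatty acid uptake and oxidation had 27 genes tested, 9 higher and 18 lower, median -0.034, the largest differences being Ppargc1a -0.37 ± 0.12 and Ucp3 -0.25 ± 0.25. Ppargc1a, the coactivator of mitochondrial biogenesis, read 9.93, 10.30, 10.06 and 10.06 in the late arrays, against 10.17, 10.22, 10.72, 10.55 and 10.62 in the early arrays, with day 3 above all late arrays. Complex I had 35 genes tested, 7 higher and 28 lower, median -0.042, and complexes II to V had 37 genes tested, 12 higher and 25 lower, median -0.037. In complex I, Ndufb3 read 8.55, 8.37, 8.45 and 8.35 in the late arrays, against 8.71, 8.57, 8.79, 8.90 and 8.84 in the early arrays without overlap, at -0.33 ± 0.079, and Ndufa5 differed by -0.20 ± 0.059. In complexes II to V, Atp5pb, of the peripheral stalk of ATP synthase, differed by -0.18 ± 0.042 without overlap and Sdhd, an anchor of complex II, by -0.24 ± 0.093.

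Proteins of the mitochondrial ribosome, which makes the subunits encoded by mitochondrial DNA, had 75 genes tested, 19 higher and 56 lower, median -0.074. At an unadjusted p under 0.05 there were 1 higher and 10 lower, against 5.66% and 5.74% of all genes, and 4 were lower without overlap, against 2.59%. Mrpl44 read 6.65, 6.42, 6.65 and 6.51 in the late arrays, against 7.01, 7.08, 7.02, 6.75 and 6.83 in the early arrays, a difference of -0.38 ± 0.096. Mrps31 read 7.60, 7.18, 7.24 and 7.22 in the late arrays, against 7.69, 7.71, 7.67, 7.68 and 7.69 in the early arrays, a difference of -0.38 ± 0.092. The list mean of replicate 2 of day 12 was the lowest of all arrays, at -0.32, and that of replicate 1 of day 12 was 0.094, so that the late arrays of 1 day spanned more than the median. With the marker score as a covariate the median was -0.011. Mrps21, with 0.39 ± 0.27, ran the other way. Cytosolic ribosomal proteins had 51 genes tested, 37 higher and 14 lower, median 0.047, a median that became -0.039 under equal array medians, with Rpl21 0.19 ± 0.089 and Rps18 0.18 ± 0.067 the largest. Rpl21 had 9 probe sets, and its difference became -0.083 when they were averaged. Proteasome subunits had 31 genes tested, 5 higher and 26 lower, median -0.082, 3 of them lower without overlap against 2.59% of all genes, with Psmb6 -0.22 ± 0.088 and Psmd6 -0.21 ± 0.12 the largest.

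The circadian clock is a loop in which Arntl and Clock drive Per, Cry and Nr1d1 genes, whose products repress the drivers, and its levels in the heart depend strongly on the hour of sampling. The labels give no hour of isolation, so hour and phase cannot be told apart. Of 18 tested genes 12 were lower and 6 higher, with a median of -0.12, and 5 were lower and 1 higher at an unadjusted p under 0.05, against 5.74% and 5.66% of all genes. The list mean was -0.17 to -0.0097 in the late arrays, against -0.071 to 0.14 in the early arrays. Ciart, a repressor of Arntl activity, read 5.27, 4.52, 5.38 and 5.21 in the late arrays, against 5.80, 5.65, 6.30, 6.69 and 6.08 in the early arrays. All late arrays lay below all early ones, at -1.01 ± 0.23 (limma adjusted p = 0.206). Dbp, an output factor driven by the loop, read 8.16, 8.31, 8.47 and 8.29 in the late arrays, against 8.64, 8.88, 8.72, 9.07 and 8.75 in the early arrays, also without overlap, at -0.50 ± 0.097.

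The driver Arntl ran the opposite way, with 7.27, 7.16, 7.12 and 6.96 in the late arrays, against 7.11, 6.78, 6.63, 6.52 and 6.75 in the early arrays. The groups overlapped through 1 array of day 1, and the difference was 0.37 ± 0.12. On the repressor side, Per1 differed by -0.47 ± 0.23, Per2 by -0.31 ± 0.23, Per3 by -0.40 ± 0.13 and Nr1d1 (Rev-erb alpha) by -0.19 ± 0.080. Tef, an output factor related to Dbp, differed by -0.29 ± 0.11. Not every member ran this way. Clock, the other driver, differed by -0.097 ± 0.090, and the repressor Cry1 by 0.17 ± 0.15. Besides Arntl and Cry1, the higher members were Nfil3 (0.22 ± 0.15), Hlf (0.20 ± 0.11), Rora (0.058 ± 0.11) and Nr1d2 (0.0083 ± 0.070). Day 5 samples lay opposite to the late ones for Dbp, with 9.20 and 9.04, and for Arntl, with 6.32 and 6.08.

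The E-box CACGTG, the palindrome bound by Arntl and Clock, was in 2349 promoters (7.15%) and in those of 5 of the 16 clock list genes with an entry: Per1, Cry1, Tef, Bhlhe41 and Ciart. The D-box TTATGTAA, bound by Dbp and Tef, was in 308 promoters (0.938%) and in that of Per3 among the 16. The promoter of Ciart (chr3:95882179-95882478, minus strand, RefSeq, GRCm38.p6) is shown because Ciart had the largest difference of the list and 3 E-boxes, which are in capitals.
Ciart: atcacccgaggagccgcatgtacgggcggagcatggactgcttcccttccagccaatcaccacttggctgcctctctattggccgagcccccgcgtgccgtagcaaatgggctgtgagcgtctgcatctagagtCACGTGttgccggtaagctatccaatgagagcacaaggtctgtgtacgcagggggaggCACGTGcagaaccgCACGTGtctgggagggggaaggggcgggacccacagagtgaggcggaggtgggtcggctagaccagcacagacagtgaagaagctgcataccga
Their first bases lay at -116, -58 and -44 from the start site.

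Genes of antigen presentation, by which cells display peptides to T cells, had higher late means for all 11 tested members, with a median of 0.62. At an unadjusted p under 0.05, 6 were higher, against 5.66% of all genes. H2-Ab1, a chain of MHC class II, read 7.91, 8.75, 8.97 and 8.57 in the late arrays, against 7.74, 8.17, 6.39, 6.46 and 7.89 in the early arrays. Its highest early value lay above its lowest late one, and the difference was 1.22 ± 0.39. Cd74, the invariant chain of class II, read 8.46, 9.66, 9.53 and 9.38 in the late arrays, against 8.31, 8.86, 6.98, 7.22 and 8.75 in the early arrays, a difference of 1.23 ± 0.41. The other class II genes H2-Aa, H2-Eb1 and H2-DMa differed by 1.12 ± 0.45, 1.06 ± 0.36 and 0.62 ± 0.21. Tap1, which supplies peptides to class I, was narrowly without overlap, with 6.82, 6.79, 7.34 and 7.02 in the late arrays, against 6.78, 6.45, 6.74, 6.19 and 5.68 in the early arrays. Its difference was 0.63 ± 0.22 (limma adjusted p = 0.342).

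Lymphocyte genes, those of T cells and of B cells together, showed the same direction. All 10 lymphocyte markers tested, of 21 listed, had a higher late mean, with a median of 0.67 and 4 at an unadjusted p under 0.05, against 5.66% of all genes. The list mean was -0.20, 0.63, 0.65 and 0.59 in the late arrays, against 0.024, 0.060, -0.43, -0.89 and -0.21 in the early arrays. Cd8b1, a chain of the CD8 coreceptor of cytotoxic T cells, read 4.23, 6.52, 7.66 and 7.16 in the late arrays, against 5.99, 4.52, 4.46, 3.76 and 3.91 in the early arrays. Day 26 was highest, replicate 1 of day 12 was among the low arrays, and the day 5 samples were high as well, at 7.29 and 7.08. The difference was 1.87 ± 0.65, with a limma adjusted p of 0.348. Cd8a differed by 1.02 ± 0.37 and Cd3e, of the T cell receptor complex, by 0.54 ± 0.18. Cd8b1 and Cd8a had early means of 4.53 and 4.66 and sham means of 4.31 and 4.62, all under the signal filter of 5.00. That filter took the mean over all 15 arrays, so both were tested only through their late and day 5 values. Other listed markers on the array fell below it, so the count of 10 higher is partly fixed by the filter.

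Interferon-stimulated genes had higher late means for 24 of 25 tested, with a median of 0.32 and 4 at an unadjusted p under 0.05, against 5.66% of all genes. Irf7, the regulator of type I interferon output, differed by 0.60 ± 0.17, Ifit3 by 0.54 ± 0.24 and the immunoproteasome subunit Psmb9, without overlap, by 0.36 ± 0.10. NF-kB cytokines and adhesion molecules had 20 genes tested, 19 higher and 1 lower, median 0.23. Cxcl9, a chemokine that attracts T cells, read 5.45, 6.77, 6.09 and 5.44 in the late arrays, against 5.37, 5.36, 4.46, 4.58 and 5.08 in the early arrays. Its groups did not overlap, at 0.96 ± 0.30, but its sham arrays were as high as the late ones, with 5.77, 5.86 and 5.80. Ccl2, which attracts monocytes, differed by 0.51 ± 0.36. Complement had 13 genes tested, 12 higher and 1 lower, median 0.44, with 0 members at an unadjusted p under 0.05, and its largest differences were C5ar1 0.52 ± 0.41 and C1qa 0.50 ± 0.35.

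The markers of other cells moved with these groups. Endothelial markers had 20 genes tested, 19 higher and 1 lower, median 0.33, with list means of -0.067 to 0.56 in the late arrays, against -0.65 to 0.31 in the early arrays. Macrophage and monocyte markers had 21 genes tested, 19 higher and 2 lower, median 0.33, with list means of -0.32 to 0.86 in the late arrays, against -0.94 to 0.82 in the early arrays, and Ptprc (CD45), borne by all leukocytes, differed by 0.69 ± 0.51. Fibroblast markers had 15 genes tested, 14 higher and 1 lower, median 0.26, with list means of -0.37 to 0.73 in the late arrays, against -0.74 to 0.54 in the early arrays. The macrophage median was below 0 in 2 of 30 alternatives, at -0.066 with the score as a covariate and -0.14 without day 3. The fibroblast median was below 0 in 1, at -0.044 with the covariate. The score is made of the endothelial, fibroblast and macrophage markers themselves. The covariate therefore draws the differences of these lists towards 0 by construction, and their values with it say nothing further. None of the markers was listed at 0, and lymphocyte markers were on the higher side as given above. With the other-cell marker score as a covariate, the median was 0.49 for MHC genes, 0.33 for lymphocyte markers, 0.085 for interferon-stimulated genes, 0.038 for NF-kB genes and -0.038 for complement. The MHC median was above 0 under all 30 alternatives, from 0.38 to 1.06. The part of lymphocytes and of other cells outside the score in these values was not tested.

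**Figure D4:**
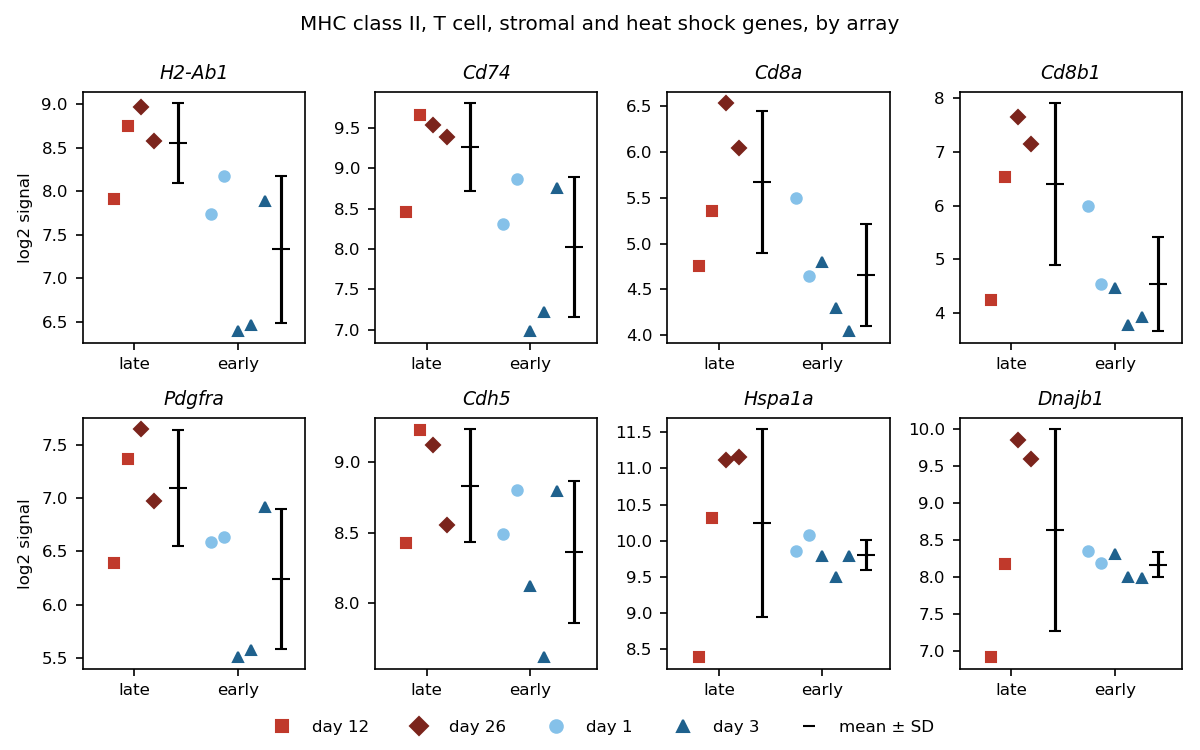
Log2 signal in late (left) and early (right) arrays of MHC class II genes, CD8 chains, Pdgfra of fibroblasts, Cdh5 of endothelium and the heat shock genes Hspa1a and Dnajb1, with black bars for mean ± SD. In all 8 panels the groups overlap; for Hspa1a and Dnajb1 both day 26 arrays lie above all early arrays and replicate 1 of day 12 below them.

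Stromal genes had higher late means with a wide spread. Pdgfra, the receptor that marks fibroblasts, read 6.39, 7.37, 7.64 and 6.97 in the late arrays, against 6.59, 6.63, 5.51, 5.57 and 6.91 in the early arrays, a difference of 0.85 ± 0.34, and Gsn (gelsolin) differed by 0.78 ± 0.34. The endothelial cadherin Cdh5 read 8.43, 9.23, 9.12 and 8.55 in the late arrays, against 8.49, 8.81, 8.12, 7.61 and 8.80 in the early arrays, a difference of 0.47 ± 0.26. Aplnr, described above, was the endothelial marker without overlap. Extracellular matrix had 34 genes tested, 30 higher and 4 lower, median 0.27, and TGF-beta signalling 28 genes tested, 22 higher and 6 lower, median 0.14. Their largest differences were Fmod 0.63 ± 0.34 and Thbs1 0.54 ± 0.65 for matrix, and Id3 0.57 ± 0.34 and Ltbp4 0.54 ± 0.32 for TGF-beta. With the marker score as a covariate the matrix median was -0.015 and the TGF-beta median -0.013. Thbs1 turned to -0.53 without day 3 and to -0.18 with the marker score as a covariate.

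Smooth muscle and pericyte markers had 13 genes tested, 9 higher and 4 lower, median 0.28, with Kcnj8 0.64 ± 0.28 and Tagln 0.63 ± 0.24 the largest, and the median was below 0 in 1 of 30 alternatives (-0.047). Mesothelial and epicardial markers had 14 genes tested, 13 higher and 1 lower, median 0.19, with Bnc1 0.53 ± 0.27 and Tbx18 0.49 ± 0.18 the largest, and the median was below 0 in 4 of 30 alternatives, down to -0.23. Atrial markers had 11 genes tested, 6 higher and 5 lower, median 0.19, the median being below 0 in 3 of 30 alternatives, down to -0.14. Its largest differences were Myl7 0.75 ± 0.62 and Mybphl 0.45 ± 0.35, and both turned negative without day 26 (-0.22 and -0.047). Nerve and Schwann cell markers had 3 genes tested, 2 higher and 1 lower, median 0.13, with Ncam1 -0.25 ± 0.15 and Gfra3 0.14 ± 0.097 the largest. Adipocyte markers had 7 genes tested, 6 higher and 1 lower, median 0.42. Of these, Plin1, the coat protein of fat droplets, read 5.78, 6.42, 6.40 and 6.03 in the late arrays, against 5.53, 5.29, 5.76, 5.36 and 5.43 in the early arrays, without overlap, at 0.68 ± 0.15, and Retn (resistin) differed by 1.01 ± 0.48.

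Lcn2 belongs to the acute phase and neutrophil lists. The STAT3 and acute phase list had 19 genes tested, 10 higher and 9 lower, median 0.017, a median that became -0.069 under equal array medians, and its 4 members at an unadjusted p under 0.05 were all lower, against 5.74% of all genes: besides Lcn2, they included Serpina3n, a secreted protease inhibitor, and Stat3 itself. Serpina3n read 6.54, 7.55, 7.91 and 7.42 in the late arrays, against 8.48, 7.92, 7.69, 8.31 and 8.91 in the early arrays. Replicate 1 of day 26 overlapped the lowest early array, and the difference was -0.90 ± 0.29. Stat3 read 8.67, 8.99, 8.97 and 8.76 in the late arrays, against 8.91, 9.24, 9.12, 9.21 and 9.43 in the early arrays, a difference of -0.33 ± 0.11. Neutrophil markers were lower for all 6 tested of 15 listed, with a median of -0.46 and list means of -0.59, 0.47, -0.16 and -0.49 in the late arrays, against 0.49, 1.71, -0.37, -0.14 and 0.65 in the early arrays. Replicate 2 of day 1 stood far above the rest, for example in Retnlg, a granule gene, with 4.86, 6.11, 5.45 and 4.85 in the late arrays, against 5.01, 9.19, 4.63, 5.85 and 7.61 in the early arrays. Apart from Lcn2, the neutrophil markers overlapped between the groups. All 15 listed were on the array, and those not tested, such as S100a8 and Ly6g, fell below the signal filter. That filter took the mean over all 15 arrays, so the count of 6 lower may be partly fixed by it. The part of neutrophils in the Lcn2 value was not tested.

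Erythroid and platelet markers had 8 genes tested, 2 higher and 6 lower, median -0.45, with the same array of day 1 highest, and the median was 0.029 without day 1. Slc4a1, the anion exchanger of red cells, differed by -1.35 ± 0.72 and Alas2, of haem synthesis, by -0.92 ± 0.91. Glucocorticoid-induced genes had 21 genes tested, 9 higher and 12 lower, median -0.023. In that list Lcn2 was the lowest and Angptl4, an inhibitor of lipoprotein lipase, was on the higher side at 0.53 ± 0.23.

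The p53 target list had 23 genes tested, 11 higher and 12 lower, median -0.024. Of its members, 0 were higher and 3 lower at an unadjusted p under 0.05, against 5.66% and 5.74% of all genes, and 4 were lower without overlap, against 2.59%. One of them, Ccng1 (cyclin G1), read 11.59, 11.54, 11.60 and 11.60 in the late arrays, against 11.68, 11.64, 11.67, 11.67 and 11.73 in the early arrays, a difference of -0.094 ± 0.032. Phlda3, an Akt inhibitor induced by p53, differed by 0.066 ± 0.13, and Mdm2, the ubiquitin ligase of p53, by 0.030 ± 0.073. Under equal array medians they differed by -0.020 and -0.057. The largest differences of the list were Polk -0.25 ± 0.18 and Bbc3 0.23 ± 0.13, and Cdkn1a was not analysed here. Double-strand break repair had 18 genes tested, 6 higher and 12 lower, median -0.096. There, H2ax, the histone phosphorylated at breaks, read 6.03, 6.03, 6.37 and 6.04 in the late arrays, against 5.95, 5.72, 5.62, 5.91 and 5.71 in the early arrays without overlap, at 0.33 ± 0.11, and Rad50 differed by -0.27 ± 0.14. Cell cycle genes had 23 genes tested, 21 higher and 2 lower, median 0.15, against 56.1% of all genes higher. Mcm6 0.52 ± 0.21 and Rrm2 0.52 ± 0.21, of replication licensing and nucleotide supply, were the largest. At an unadjusted p under 0.05, 3 members were higher, and 0 under quantile normalization or equal array medians. Under equal array medians 17 of the 23 were higher, against 36.4% of all genes, with a median of 0.060. Listed genes such as Cdk1, Top2a and Aurkb fell below the signal filter. Apoptosis regulators had 24 genes tested, 16 higher and 8 lower, median 0.077, a median that became -0.0095 under equal array medians, with Bcl2 0.48 ± 0.19 and Casp8 0.45 ± 0.29 the largest.

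Genes of oxidative stress defence had 26 genes tested, 8 higher and 18 lower, median -0.054, and all 5 at an unadjusted p under 0.05 were lower, against 5.74% of all genes. Gclm, the modifier subunit of the enzyme that starts glutathione synthesis, read 7.21, 7.47, 7.15 and 7.26 in the late arrays, against 7.74, 8.12, 7.52, 7.65 and 7.85 in the early arrays. The groups did not overlap, at -0.50 ± 0.12. The metallothioneins, which bind zinc and copper, followed with -0.30 ± 0.099 for Mt1, without overlap, and -0.41 ± 0.16 for Mt2. Autophagy and lysosome genes had 28 genes tested, 8 higher and 20 lower, median -0.046. Bnip3, a mitophagy receptor, read 9.537, 9.312, 9.427 and 9.659 in the late arrays, against 9.693, 9.823, 9.860, 9.998 and 9.828 in the early arrays, without overlap, at -0.36 ± 0.081, and Fbxo32 (atrogin 1) differed by -0.23 ± 0.10. Immediate early genes had 25 genes tested, 16 higher and 9 lower, median 0.073, a median that became -0.013 under equal array medians, with Ccn1 0.43 ± 0.17 and Jun 0.32 ± 0.18 the largest.

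Cytosolic heat shock proteins split the late group. The list had 21 genes tested, 15 higher and 6 lower, median 0.084, a median that became -0.0020 under equal array medians. Its list mean was -0.22, -0.068, 0.29 and 0.29 in the late arrays, against -0.070, -0.15, -0.033, 0.011 and -0.089 in the early arrays. Both day 26 arrays lay above, and replicate 1 of day 12 below, all early arrays. Hspa1a, the inducible HSP70, read 8.39, 10.32, 11.12 and 11.15 in the late arrays, against 9.86, 10.07, 9.79, 9.50 and 9.79 in the early arrays. Dnajb1, its HSP40 partner, read 6.91, 8.17, 9.84 and 9.59 in the late arrays, against 8.34, 8.19, 8.30, 7.99 and 7.99 in the early arrays. Their differences of 0.44 ± 0.47 and 0.47 ± 0.49 had standard errors above their own size. Without day 12 both passed in limma (Hspa1a 1.33, adjusted p = 0.0115, and Dnajb1 1.55, adjusted p = 0.00985), together with Bag3 (0.63) and the collagen chaperone Serpinh1 (0.88); without day 26 they turned to -0.45 and -0.62. Dnaja1 differed by 0.51 ± 0.13, Bag3 by 0.34 ± 0.13 and Serpinh1 by 0.55 ± 0.17 over all 9 arrays. The sham arrays read 10.40, 8.79 and 10.82 for Hspa1a, within the range of the late arrays.

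**Figure D5:**
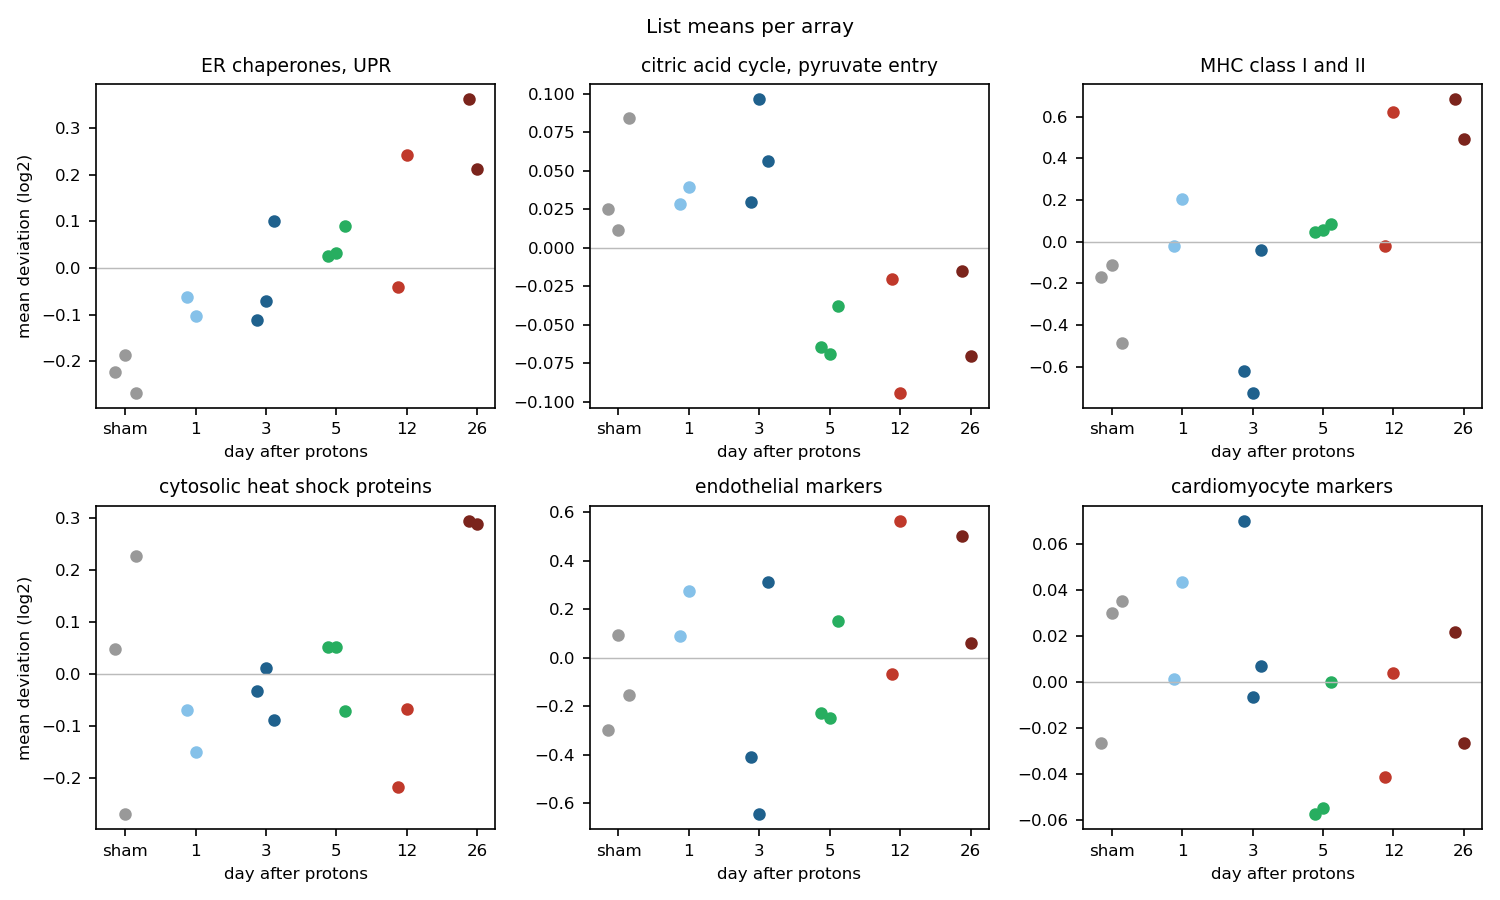
Mean deviation of the genes of 6 lists from their mean over 15 arrays (log2), for each array, with sham at the left and the days in order. ER chaperones are highest in replicate 1 of day 26 (0.36), the citric acid cycle list is below 0 from day 5 on, heat shock proteins stand at 0.29 in both day 26 arrays and below 0 at day 12, and cardiomyocyte markers run from -0.058 to 0.070.

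Contractile and electrical genes of the cardiomyocyte showed small differences, mostly to the lower side. Sarcomere and Z-disc proteins had 33 genes tested, 11 higher and 22 lower, median -0.045, with 0 higher and 7 lower at an unadjusted p under 0.05, against 5.66% and 5.74% of all genes. Tcap, a titin cap of the Z-disc, read 9.29, 9.21, 9.08 and 9.20 in the late arrays, against 9.30, 9.38, 9.41, 9.69 and 9.39 in the early arrays, a difference of -0.24 ± 0.082, and Fhl2, a LIM domain protein, differed by -0.18 ± 0.039, both without overlap. Nebl differed by -0.27 ± 0.082 and Ttn by -0.23 ± 0.13. Calcium handling had 20 genes tested, 5 higher and 15 lower, median -0.030. Slc8a1, the sodium-calcium exchanger, read 8.92, 8.96, 8.94 and 9.02 in the late arrays, against 9.11, 9.57, 9.40, 9.05 and 9.26 in the early arrays, without overlap, at -0.32 ± 0.099. Cacna1c, the L-type channel, differed by -0.29 ± 0.089 and Ryr2, the release channel, by -0.21 ± 0.084.

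Ion channels and connexins had 24 genes tested, 6 higher and 18 lower, median -0.052. Kcnh2, the channel of the rapid delayed rectifier current, read 8.05, 8.02, 7.73 and 7.87 in the late arrays, against 8.23, 8.45, 8.38, 8.42 and 8.30 in the early arrays. Its late arrays were all lower, at -0.44 ± 0.084 (limma adjusted p = 0.194). Kcnq1, of the slow current, was also lower without overlap, at -0.22 ± 0.072, whereas the sodium channel subunit Scn4b was higher without overlap, at 0.37 ± 0.11. Fetal and stress genes had 13 genes tested, 7 higher and 6 lower, median 0.045, a median that became -0.041 under equal array medians, and 0 members at an unadjusted p under 0.05. Nppa and Nppb, the natriuretic peptides, differed by -0.20 ± 0.37 and 0.077 ± 0.12, Myh7, the fetal ventricular myosin of the mouse, by 0.26 ± 0.18, Acta1, skeletal actin, by 0.045 ± 0.15 and Timp1, a protease inhibitor, by -0.36 ± 0.17. The signs of Nppb and Acta1 turned under equal array medians (-0.0096 and -0.041).

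A few further genes stood on the fixed list of names. Scarna13, a guide RNA of Cajal bodies, read 9.06, 9.19, 8.79 and 9.09 in the late arrays, against 8.72, 8.99, 8.40, 8.24 and 8.34 in the early arrays. The difference was 0.49 ± 0.15, and day 5 was higher still, at 9.77 and 9.51, against 7.59, 8.27 and 7.54 in sham. Rnu12, an RNA of the minor spliceosome, differed by -0.35 ± 0.33, with both day 1 arrays above all others of either group. Pde7a, a cyclic AMP phosphodiesterase, differed by -0.090 ± 0.20 and Snora3 by -0.044 ± 0.28, with standard errors above the differences.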

How the data were processed

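Expression in cardiomyocytes was measured on Affymetrix arrays. The authors deposited 1 table of log2 signals for 34760 probe sets and 15 arrays, and MAS5 is the tool named in the submitters' processing notes, with no version; background correction and normalization are not given in the sources used here. Array medians ran from 4.90 to 5.16 and 95th percentiles from 9.11 to 9.16. The values were used as deposited, and precision is limited by how few arrays there are. The number of columns from other series was 0.

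By the array annotation, 21640 probe sets had 1 gene symbol, 1321 several and 11799 none, and 21553 of the first matched RefSeq (GRCm38.p6). For each of 19937 genes the probe set with the highest mean over 15 arrays was kept (954 genes had several), and the 12102 genes with a mean above the median of all probe sets, 5.00, were tested.

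limma 3.58.1 in R 4.3.3 (lmFit, eBayes with a variance trend) compared 4 late with 5 early arrays, 2-sided, with 7 residual and 10.7 moderated degrees of freedom and Benjamini-Hochberg adjustment over all 12102 genes at 0.05. Day 5 replicates 1 and 2, with a Spearman correlation of 0.989 (at most 0.978 for other pairs), were averaged in the 14-sample fit. Python 3.11.15 (pandas 2.3.3, matplotlib 3.10.9) was used for lists, motifs and figures. The fit was tested on simulated data. Alternatives changed scaling, filter, probe choice, variance model, blocks, a marker covariate, days and single arrays.

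The members and the 42 lists were chosen with earlier results of these data known. Genes were named by rule: the 6 smallest p in each direction, the 2 largest differences of each list, and a fixed set. Of 161 genes in the text, 107 follow it, and the other 54 were chosen after their values were seen. Clock, Cry1, Hlf, Nfil3, Nr1d2 and Rora are outside the 161. They were also chosen after their values were seen, to show both directions of the clock list.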

Additional observations from a re-analysis of the deposited data

Results flagged for a closer look

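A value was marked where the highest or lowest array of a group stood apart from the others by most of the range of the group (Dixon's test at the 95% level, groups of 4 late or 5 early arrays). Of 322 groups, 2 for each of 161 genes, 13 were marked, and chance alone marks about 1 in 20. Replicate 1 of day 12 stood apart in 4 genes. It was low for Pdia4, at 7.954 against 8.566 to 8.692 in the other late arrays, for Mt1, at 10.43 against 10.69 to 10.72, and for C5ar1, at 5.995 against 7.11 to 7.241. It was high for Mrps31, at 7.599 against 7.176 to 7.241. Replicate 2 of day 12 was high for Cacna1c, at 9.872 against 9.476 to 9.538. Replicate 1 of day 26 was high for Tef, at 8.295 against 8.00 to 8.015, and for H2ax, at 6.371 against 6.027 to 6.04.

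Among the early arrays, replicate 2 of day 1 was high for Snord87, at 6.63 against 6.17 to 6.225, and low for Jun, at 9.447 with the other early arrays at 9.911 or above. Replicate 1 of day 3 was low for Manf, at 7.262 against 7.554 to 7.633. Replicate 2 of day 3 was high for Ucp3, at 7.986 against 7.252 to 7.435. Replicate 3 of day 3 was high for H1f2, at 9.796 against 9.452 to 9.534, and for Ncam1, at 6.188 against 5.671 to 5.786.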

How the results depend on the processing

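The count of 0 genes at an adjusted p under 0.05 was the same under 22 of 30 alternatives. It was 1 with array weights (Lcn2), 3 with day as a random block (Acad11, Lcn2 and Phka1, at a correlation of -0.135), 2 with the marker score as a covariate (Ephx1 and Lcn2), 6 over the days of 14 samples, 20 over those of 15 arrays (7 higher and 13 lower), 2 without day 1 (Aplnr and Phka1) and 8 without day 12 (Bag3, Cdc42ep2, Dnajb1, Hsd17b7, Hsp90aa1, Hspa1a, Serpinh1 and Zfp36l1). The fit over 15 arrays counted the nearly identical replicates 1 and 2 of day 5 as separate samples. Leaving out 1 array gave 0 to 2, the 2 being Aplnr and Phka1 without replicate 1 of day 1. The count of genes at an unadjusted p under 0.05, 1380, became 880 with the stricter signal filter, 2093 with array weights, 2301 with the covariate, 804 without day 3 and 394 without day 26, and ran from 826 to 1691 when 1 array was left out (826 without replicate 2 and 892 without replicate 1 of day 26). Fits without a day or an array use fewer samples. The cause of the other shifts was not tested.

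Same-numbered arrays of different days need not share anything: over 12 such pairs the deviations correlated at a median of -0.20, from -0.72 to 0.46, with 5 pairs over 0.1. Between days of 2 arrays each, both replicate numbers gave the same correlation by construction. The 12 values are therefore not independent, and 0.46 was counted for both numbers among the 5. With the replicate number as a block, which leaves out the lone array numbered 3, 0 genes passed, with 1044 genes at an unadjusted p under 0.05, and the differences that turned sign were Ddit3 -0.084, Nppa 0.00030, Pde7a 0.0041 and Tnnt2 -0.0011.

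Of 4788 values of single genes under the alternatives, 4684 kept direction and side of the threshold, 34 passed where the 9 arrays did not, and 70 turned sign. Under quantile normalization the differences that did were Ddit3 -0.014 and Atp2a2 0.00052. Under equal array medians the differences that did were Ddit3 -0.069, Nppb -0.0096, Phlda3 -0.020, Mdm2 -0.057, Acta1 -0.041 and Tnnt2 -0.084. With the mean of all probe sets of a gene the differences that did were Rpl21 -0.083 and Snora3 0.16. With array weights the differences that did were Nppa 0.010 and Pde7a 0.14. With day as a random block the differences that did were Ddit3 -0.0069 and Tnnt2 -0.00047. With the other-cell marker score as a covariate the differences that did were Phlda3 -0.028, Thbs1 -0.18 and Snora3 0.029. Without day 1 the differences that did were Ddit3 -0.22, Rnu12 0.16, Alas2 0.0012, Snora3 0.23 and Tnnt2 -0.024. Without day 3 the differences that did were Per2 0.028, Ptprc -0.14, Nppa 0.26, Nppb -0.059, Phlda3 -0.11, Pde7a 0.37 and Thbs1 -0.53. Without day 12 the differences that did were Nppa 0.18 and Pde7a 0.12. Without day 26 the differences that did were Ddit3 -0.092, Nppb -0.071, Dnajb1 -0.62, Hspa1a -0.45, Phlda3 -0.098, Mdm2 -0.0042, Mybphl -0.047, Myl7 -0.22, Alas2 0.19, Ucp3 0.22, Snora3 0.22, Tnnt2 -0.0072 and Jun -0.018. Without the array of the highest marker score on each side, an alternative chosen after seeing the data, the differences that did were Ddit3 -0.12, Acta1 -0.13 and Snora3 0.014. When 1 array was left out, the ranges of those that turned sign were Acta1 -0.046 to 0.16, Atp2a2 -0.020 to 0.0082, Ddit3 -0.18 to 0.17, Mdm2 -0.0027 to 0.068, Nppa -0.50 to 0.16, Pde7a -0.22 to 0.0041, Phlda3 -0.028 to 0.15, Snora3 -0.26 to 0.15 and Tnnt2 -0.013 to 0.017. The cause of the turns was not tested. The list medians moved by less than the spread between arrays in 1227 of 1258 values. Signal over background limits genes near the filter.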

Other observations

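Several groups of genes outside the lists were looked at after their values had been seen, and none of their members passed the adjusted threshold in limma. Genes of C/D box small nucleolar RNAs, which guide the methylation of ribosomal RNA, had higher late means for all 20 tested, with differences from 0.062 to 0.72 and a median of 0.40. Of these, 15 had an unadjusted p under 0.05, against 5.66% of all genes, and 7 had all late arrays above all early ones, against 1.48%. Snord49b read 8.48, 8.50, 8.32 and 8.84 in the late arrays, against 8.13, 7.89, 8.05, 7.92 and 7.76 in the early arrays, a difference of 0.59 ± 0.11. Snord53 differed by 0.59 ± 0.12 and Snord87 by 0.55 ± 0.11, both without overlap. The day 5 samples disagreed for this class, with 8.89 and 8.42 for Snord49b and 6.25 and 5.42 for Snord53, against 8.15, 8.30 and 7.67 and 5.44, 5.48 and 5.46 in the sham arrays. H/ACA box RNAs, which guide pseudouridylation, had 15 of 18 higher, a median of 0.21 and 3 higher without overlap, against 1.48% of all genes. MicroRNA genes had 53 of 66 higher, a median of 0.19 and none without overlap.

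Histone genes had 16 of 21 higher and 5 lower, with differences from -0.51 to 1.01, and a median of 0.31. Of them, 8 were higher and 3 lower at an unadjusted p under 0.05, against 5.66% and 5.74% of all genes, and 4 were higher and 1 lower without overlap, against 1.48% and 2.59%. H2ac15 read 7.59, 8.45, 8.71 and 8.32 in the late arrays, against 7.44, 6.99, 7.29, 7.00 and 7.55 in the early arrays, a difference of 1.01 ± 0.21, and H4c4 differed by 0.53 ± 0.10, both without overlap, while the linker histone H1f2 was lower as described above. Several histone genes are near-identical copies, so that a probe set may read more than its own gene.

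Genes of fatty acid synthesis had 11 of 13 higher, with a median of 0.28. Scd1, the desaturase that makes oleate, read 7.58, 9.71, 10.31 and 9.04 in the late arrays, against 7.27, 7.81, 6.78, 5.68 and 8.60 in the early arrays. The groups overlapped through replicate 1 of day 12, which lay below replicate 2 of day 1 and replicate 3 of day 3. The difference was 1.93 ± 0.62 (limma adjusted p = 0.327). Fasn, fatty acid synthase, read 6.66, 7.72, 8.43 and 7.22 in the late arrays, against 6.54, 6.79, 6.34, 6.11 and 6.97 in the early arrays, a difference of 0.96 ± 0.31, and Thrsp, a lipogenic regulator, differed by 0.54 ± 0.17. Srebf1, which drives these genes in liver, was lower without overlap, at -0.21 ± 0.080. Adipocyte markers stood on the same side (median 0.42), and their part in these values was not tested.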
